A study of Homo sapiens with 11 samples.

Results

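The data here follow 10 genes of the YAP and TEAD branch of the Hippo pathway through a knockdown of AKR1A1 in 769-P cells, a human line from a clear-cell renal carcinoma. AKR1A1 encodes an aldehyde reductase. The genes were taken by symbol, 10 of the 33080 genes in each deposited table, and the set was selected on measured values, a rise of ANKRD1 with si1 and si2 against siSCR already seen in these libraries. They were YAP1, WWTR1, TEAD1, LATS2, AJUBA, AMOTL2, ANKRD1, CYR61 (now CCN1), CTGF (now CCN2) and AXL. All 10 had 1 row each, and CYR61 and CTGF stood under those symbols.

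There were 4 RNA-seq libraries with a second siRNA against AKR1A1 (si2), 3 with a first siRNA (si1) and 4 with a control siRNA (siSCR). All 11 were 769-P cells transfected with RNAiMAX for 48 h, with the siRNA given in the labels as 20 µM, so the controls had been through transfection too. The labels call the si2 and si1 cells AKR1A1-/- and the siSCR cells wild-type, although the treatment was a transient siRNA knockdown in a single line. Nothing says that the replicates of a group were separate cultures, and p-values then measure only the spread between these libraries, which may be technical.

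YAP1 and WWTR1 (the protein is called TAZ) are transcriptional coactivators with no DNA-binding domain of their own. The kinases LATS1 and LATS2, switched on by STK3 and STK4, phosphorylate them and keep them in the cytoplasm. Unphosphorylated YAP1 and TAZ enter the nucleus, where they bind TEAD factors and raise genes such as ANKRD1, CYR61 and CTGF. Because this control acts on protein position and stability, an mRNA level of YAP1 or WWTR1 does not report the activity of the protein.

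The promoters of ANKRD1 and CTGF, classical readouts of YAP and TEAD, are shown because ANKRD1 had the largest difference of the 10 genes from siSCR while CTGF stayed at a few reads per library. Both come from the RefSeq promoter table of GRCh38.p14 and run 5′ to 3′ on the gene's strand, the minus strand in both cases, from 250 bases before the start to 50 bases from it on. The windows are chr10:90921038-90921337 for ANKRD1 and chr6:131951323-131951622 for CTGF. Capitals mark GGAATG, a core sequence recognised by TEAD factors, and in ANKRD1 also TGATTCA, a match to the AP-1 motif TGANTCA.
ANKRD1: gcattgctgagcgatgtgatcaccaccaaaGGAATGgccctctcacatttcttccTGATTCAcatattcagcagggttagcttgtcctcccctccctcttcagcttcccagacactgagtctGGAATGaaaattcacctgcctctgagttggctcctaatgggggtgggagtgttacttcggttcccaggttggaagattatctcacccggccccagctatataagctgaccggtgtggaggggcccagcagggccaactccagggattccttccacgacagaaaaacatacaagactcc
CTGF: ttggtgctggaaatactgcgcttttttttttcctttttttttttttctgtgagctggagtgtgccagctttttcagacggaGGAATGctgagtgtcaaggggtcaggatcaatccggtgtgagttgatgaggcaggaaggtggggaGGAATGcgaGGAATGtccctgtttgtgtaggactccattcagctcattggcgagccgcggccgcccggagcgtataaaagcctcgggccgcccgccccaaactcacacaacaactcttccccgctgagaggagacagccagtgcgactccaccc
ANKRD1 held GGAATG 2 times, at -220 to -215 and -128 to -123 from the start, with TGATTCA between them at -195 to -189. CTGF held GGAATG 3 times, at -169 to -164, -104 to -99 and -95 to -90, and no TGANTCA.

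Promoter windows were at hand for 8 of the 10 genes, all but CYR61 and TEAD1, and made 12 windows in all. GGAATG, searched on both strands, was found in windows of 7 of these 8 genes. It lay at -162 to -157 in YAP1, 10 to 15 in LATS2 and -59 to -54 in AJUBA. On the opposite strand it lay at -69 to -64 in AMOTL2 and at -212 to -207 in AXL. Neither window of WWTR1 held it. Counted by window, 7 of 12 held GGAATG, against 14.0% of all 35116 promoter windows of that length. Several of the genes were listed as known targets of YAP and TEAD, so a share above that of all windows tests nothing. AMOTL2, AXL, AJUBA and WWTR1 gave more than 1 window each. TGANTCA was found in 1 of 12 windows, against 7.71% of all windows, and a CArG box, the motif of serum response factor, in 0 of 12, against 1.29%. These matches describe the letters of the windows, not bound sites.

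The deposited values were log2 of a normalized count plus 1, and the normalized count, back on its linear scale, is the unit of every level given here. Reads on genes ran between 2108546 and 5939514 per library. The second library of si1 stood apart with 11618 genes detected, against 13154 to 14355 in the other 10. The mitochondrial share of reads was 4.59 to 5.12% in si2, 6.57 to 11.1% in si1 and 3.46 to 12.1% in siSCR, and the highest value was that of siSCR library 1. Of 10 genes listed as markers of the line, PAX8 (711 to 1149), VIM (6486 to 10600) and CDH2 (2018 to 3186) were high in every library. CDH6 (379 to 755), KRT18 (325 to 831) and KRT8 (241.5 to 709) were present throughout, and PAX2 was lower (31.5 to 117). The others were near 0: CA9 had 0 reads, NDUFA4L2 1 read and LRP2 7 reads over all libraries. Markers of other cell types were near 0: the 5 fibroblast markers summed to at most 9.17 in any library, the 4 leukocyte markers to at most 3.92, and the 4 endothelial markers to 0.

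The target gene was low in both knockdowns. AKR1A1 had 56.6, 32.1, 48.3 and 46.1 normalized counts in si2 and 81.7, 23.6 and 45.1 in si1, against 390, 256, 200.1 and 242 in siSCR. The groups did not overlap. In bulk RNA, fewer cells with a transcript and less of it per cell cannot be told apart. The log2 difference was -2.53 (SE 0.24, limma adjusted p = 0.00218) for si2 against siSCR and -2.54 (SE 0.42, limma adjusted p = 0.0357) for si1 against siSCR. The second call was lost when any 1 of 6 of the 7 libraries was left out, with adjusted p up to 0.126, and held without siSCR library 1.

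A gene was called where limma's adjusted p over all genes tested was under 0.05, and the test took in genes that reached a normalized count of 10 in enough libraries to fill the smaller of the groups compared. For si2 against siSCR 3.12% of 10249 genes were called, and for si1 against siSCR 1.72% of 10517. For si2 against si1 6.74% of 10448 were called. The share of genes whose groups did not overlap at all was 12.6% for si2 against siSCR, 21.7% for si1 against siSCR and 25% for si2 against si1. The comparisons with siSCR use the same 4 control libraries and are not independent of each other. Differences of the 10 genes for si1 against siSCR are given without a test, and ANKRD1 is given without one throughout, since the choice of genes used them.

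ANKRD1 was the gene with by far the largest difference of the 10 against siSCR, and CYR61, CTGF and AXL, which are also known targets, did not match it. Of the coactivators, WWTR1 had its highest values in si2, where it was called higher than in si1 and missed the threshold against siSCR. YAP1 averaged 116 ± 36.8 normalized counts in si2 (SD, n = 4) and 122 ± 6.29 in si1 (n = 3), against 119 ± 44.0 in siSCR (n = 4). TEAD1 and LATS2 were above every control in all 4 si2 libraries without passing the test. AMOTL2, AXL and CTGF had their highest means in si1.

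**Figure D1:**
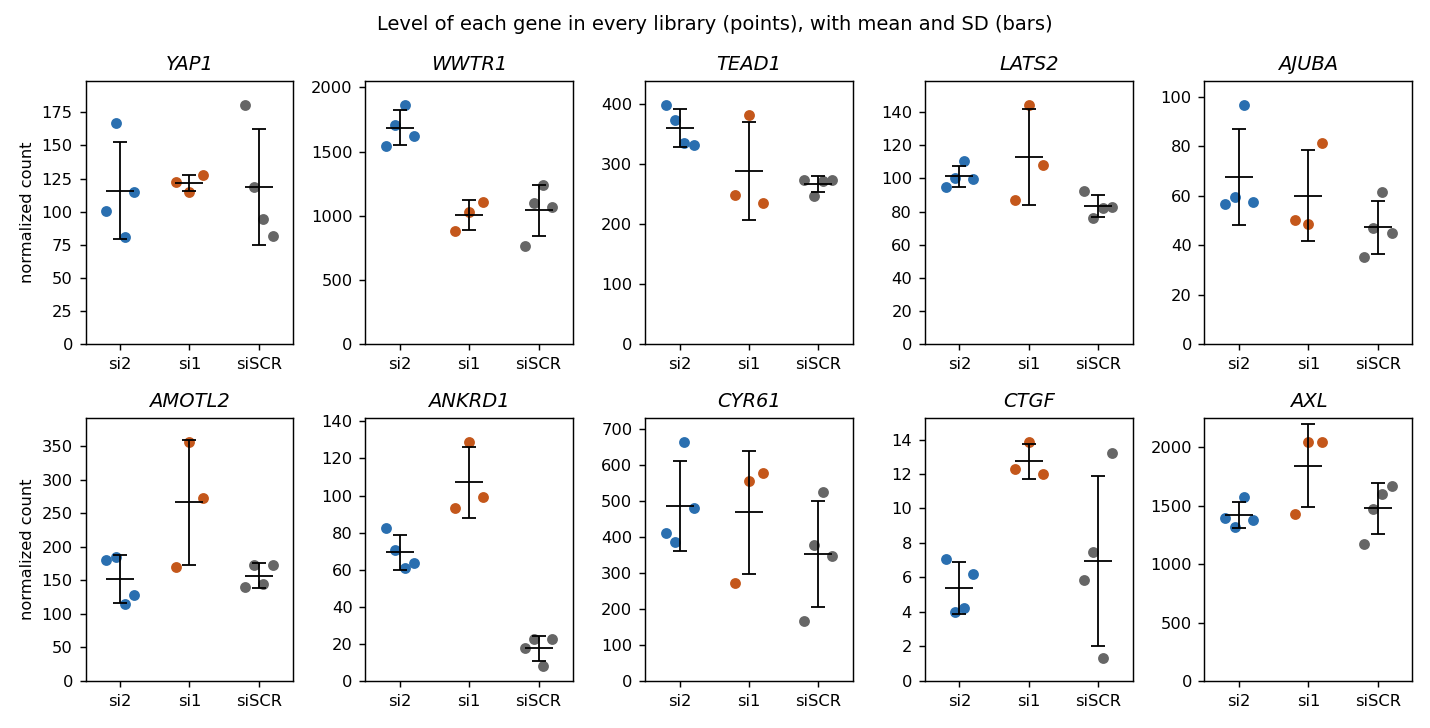
Normalized count of each of the 10 genes (vertical axis of each panel, from 0) in the si2, si1 and siSCR libraries, a point for each library, with the group mean and SD as bars. ANKRD1 is at 60.9 or above in every si2 and si1 library and at 22.4 or below in every siSCR library, and the si2 libraries of WWTR1 lie above all others.

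YAP1 is the founding coactivator of the pathway, and lies at chr11:102110461-102233423 on the plus strand (GRCh38). It had 101, 167, 80.9 and 115 normalized counts in si2 and 122, 115 and 128 in si1, against 180, 119, 94.2 and 81.5 in siSCR. The 3 groups overlapped, and the si1 libraries lay closest together. The log2 difference of si2 from siSCR was -0.02 (SE 0.29, limma adjusted p = 0.982) with a 95% interval of -0.66 to 0.62, and that interval spans changes in both directions. Its sign turned to 0.21 without siSCR library 1, the highest of the controls.

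WWTR1 encodes TAZ, the close relative of YAP1, at chr3:149517235-149736714 on the minus strand. It had 1545, 1709, 1863 and 1622 normalized counts in si2 and 883, 1031 and 1109 in si1, against 768, 1098, 1236 and 1069 in siSCR. Every si2 library was above every si1 and every siSCR library, and si1 and siSCR overlapped. Against si1 the log2 difference was 0.74 (SE 0.17, 95% interval 0.35 to 1.14, limma adjusted p = 0.0416), a 1.67-fold higher level on the scale of count plus 1. That call was lost whichever of the 7 libraries was left out, with adjusted p between 0.0537 and 0.116.

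Against siSCR the difference of WWTR1 in si2 was 0.71 (SE 0.18, 95% interval 0.31 to 1.11), a 1.64-fold higher level, and missed the threshold at a limma adjusted p of 0.0622. Without siSCR library 1, whose WWTR1 was the lowest of the controls, it was 0.57 with a limma adjusted p of 0.0293. It also passed under 6 of the 10 other settings tried, over which the limma adjusted p ran between 0.0162 and 0.165. The authors' deposited table gives WWTR1 a log2 fold change of 0.65 and an adjusted p of 0.00179 for si2 against siSCR. The si1 mean was 1008 ± 115 (SD, n = 3), against 1043 ± 197 (n = 4) in siSCR. The antisense gene WWTR1-AS1 covers 9.45% of WWTR1's exon bases. The strand setting of the counting is not given in the sources used here. WWTR1-AS1 itself had 12 reads over all libraries. Antisense genes also cover 9.97% of YAP1's exon bases (AP000942.2, 0 reads) and 8.34% of CTGF's (AL133346.1, 1 read).

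TEAD1 encodes one of the DNA-binding partners, at chr11:12674591-12944483 on the plus strand. It had 398, 372, 335 and 332 normalized counts in si2 and 248, 382 and 234 in si1, against 274, 247, 272 and 273 in siSCR. All 4 si2 libraries exceeded all 4 controls, and si1 spanned both. The log2 difference of si2 from siSCR was 0.43 (SE 0.14, 95% interval 0.11 to 0.74), which did not pass the test (limma adjusted p = 0.136). The authors' deposited table gives TEAD1 0.41 and an adjusted p of 0.0591 there. In si1 the second library alone was high, and the log2 difference from siSCR was 0.08 with it and -0.14 without it.

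LATS2 is the kinase that phosphorylates YAP1 and TAZ and is itself a target of them, at chr13:20973032-21061547 on the minus strand. It had 94.6, 100.3, 110.3 and 99.5 normalized counts in si2 and 86.9, 144 and 108 in si1, against 92.3, 75.8, 82.4 and 82.5 in siSCR. The si2 libraries lay above the controls by a narrow margin, and si1 overlapped both. Its log2 difference for si2 against siSCR was 0.28 (SE 0.14, limma adjusted p = 0.318).

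AJUBA encodes a LIM-domain scaffold that binds LATS kinases and restrains them, at chr14:22971174-22982642 on the minus strand. It had 56.6, 59.4, 96.6 and 57.5 normalized counts in si2 and 50.1, 48.6 and 81.1 in si1, against 35.3, 47.0, 61.5 and 44.8 in siSCR. Library 3 was the highest of each group, and the groups overlapped. With si2 the log2 difference from siSCR was 0.50 (SE 0.23, limma adjusted p = 0.268), and 0.32 without si2 library 3.

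AMOTL2 encodes an angiomotin-like protein that holds YAP1 at junctions and is a target gene as well, at chr3:134355874-134375479 on the minus strand. It had 180, 185, 114 and 128 normalized counts in si2 and 169, 357 and 272 in si1, against 139, 173, 144 and 172 in siSCR. Libraries 2 and 3 of si1 were above all others, and the first lay among the controls. The si1 mean was 266 ± 93.7 (SD, n = 3), against 157 ± 18.0 (n = 4) in siSCR, a log2 difference of 0.70, or 0.46 without si1 library 2. In si2 the log2 difference from siSCR was -0.07 (SE 0.20, limma adjusted p = 0.877), and from si1 -0.77 (SE 0.30, limma adjusted p = 0.154).

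Among the targets, ANKRD1 encodes an ankyrin-repeat protein of the nucleus and the muscle sarcomere, and is a gene raised by stretch and by YAP1. It lies at chr10:90912096-90921276 on the minus strand. It had 82.3, 70.6, 60.9 and 63.8 normalized counts in si2 and 93.1, 129 and 99.2 in si1, against 17.6, 22.4, 7.85 and 22.4 in siSCR. These rest on 58 to 123 reads per si2 library and 66 to 106 per si1 library, against 6 to 22 per siSCR library. No siSCR library reached a si2 or si1 library, and si1 stood above si2 in every library. The means were 69.4 ± 9.50 (SD, n = 4) in si2 and 107 ± 19.3 (n = 3) in si1, against 17.6 ± 6.87 (n = 4) in siSCR.

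On the log2 scale ANKRD1 was 2.01 above siSCR in si2 (4.03-fold) and 2.63 above it in si1 (6.17-fold), and si2 was 0.61 below si1. As these are logs of count plus 1, they are pulled toward 0 for a gene this low in the controls. With a pseudocount of 0.5 they were 2.048 in si2 and 2.665 in si1. The log2 fold changes of ANKRD1 in the authors' deposited tables are smaller, 1.56 for si2 and 2.21 for si1 against siSCR. Leaving out any 1 library kept the difference from siSCR between 1.69 and 2.16 in si2 and between 2.30 and 2.77 in si1. By size of the log2 difference upward, ANKRD1 stood at place 17 of 10249 genes tested for si2 and at place 24 of 10517 for si1. Places this high follow from the choice of the set for the ANKRD1 rise and test nothing. For si2 ANKRD1 met the filter only through si2, its high group, as siSCR library 3 was at 7.85. No other of the 10 genes came near ANKRD1: the next highest differences were 0.71 for WWTR1 in si2 and 1.05 for CTGF in si1. The CTGF value fell to 0.54 without siSCR library 3, in which CTGF had 1 read.

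**Figure D2:**
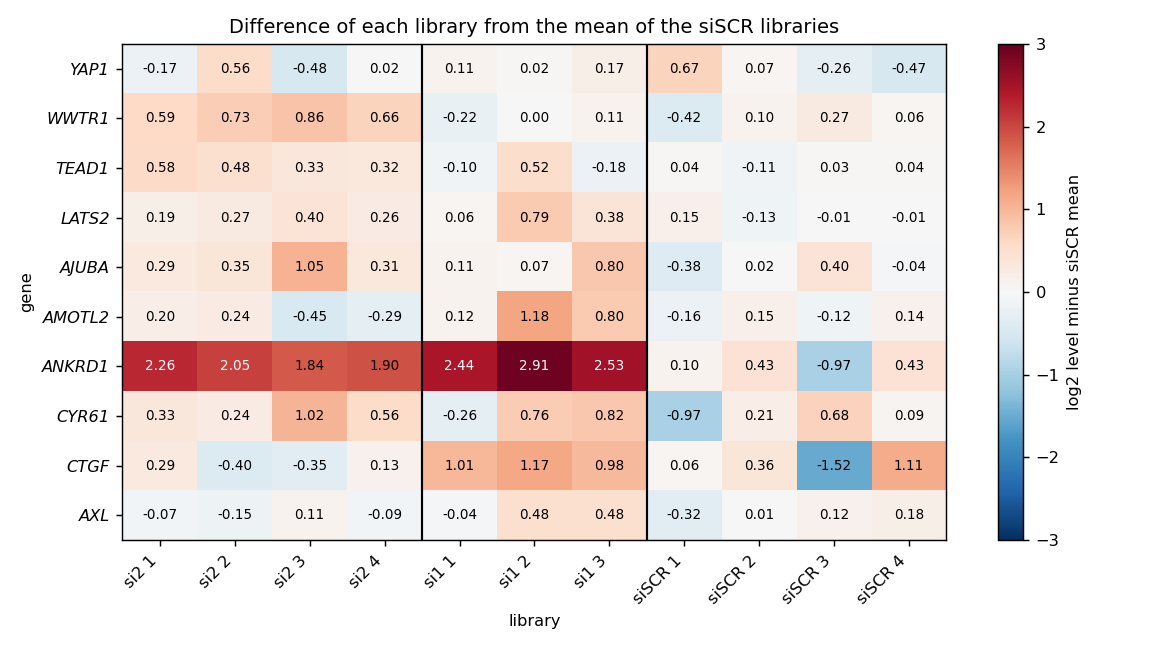
Log2 level of each gene (rows) in each library (columns) minus the gene's mean over the 4 siSCR libraries, printed in each cell, red above and blue below. ANKRD1 is 1.84 to 2.26 above in si2 and 2.44 to 2.91 above in si1, and WWTR1 is 0.59 to 0.86 above in si2.

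CYR61 encodes a secreted matricellular protein and is an immediate target of YAP1 and TEAD, at chr1:85580761-85583962 on the plus strand. It had 412, 387, 665 and 482 normalized counts in si2 and 272, 555 and 577 in si1, against 166, 377, 525 and 347 in siSCR. The groups overlapped, and the first library was the lowest in si1 and in siSCR. With si2 CYR61 had a log2 difference from siSCR of 0.54 (SE 0.33, 95% interval -0.19 to 1.27, limma adjusted p = 0.403). Without siSCR library 1 it was 0.21, and the si1 difference of 0.44 was then 0.11. With other single libraries left out the si1 difference reached 0.79.

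CTGF, the other CCN family target, encodes a secreted growth-factor-binding protein and lies at chr6:131948176-131951373 on the minus strand. It had 7.08, 4.01, 4.20 and 6.22 normalized counts in si2 and 12.3, 13.9 and 12.0 in si1, against 5.88, 7.48, 1.31 and 13.2 in siSCR. These are 4 to 12 reads per si2 library and 8 to 14 per si1 library, against 1 to 13 per siSCR library. The si2 libraries lay below all of si1, and siSCR spanned both.

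CTGF did not reach the level needed for a test of si2 against siSCR, where the log2 difference was -0.08. Between the siRNAs it was called lower in si2, with a log2 difference of -1.13 (SE 0.22, limma adjusted p = 0.0265). It entered that test only through si1, its high group, so the call supports nothing further. The call was lost when si1 library 1 or 3 or si2 library 2, 3 or 4 was left out, with adjusted p up to 0.0713, and under 6 of 9 other settings, with adjusted p up to 0.204.

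AXL encodes a receptor tyrosine kinase for GAS6 and is a reported target of YAP1, at chr19:41219203-41261766 on the plus strand. It had 1395, 1321, 1578 and 1378 normalized counts in si2 and 1430, 2050 and 2048 in si1, against 1176, 1475, 1598 and 1666 in siSCR. Libraries 2 and 3 of si1 stood above all others, and the rest overlapped. The log2 difference of si2 was -0.05 from siSCR (SE 0.16, limma adjusted p = 0.897) and -0.36 from si1 (limma adjusted p = 0.291).

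Against siSCR, none of the 8 genes other than ANKRD1 that were tested for si2 passed the threshold, by limma, where 3.12% of all genes were called. WWTR1 and TEAD1 had an unadjusted limma p under 0.05, and WWTR1 passes in the authors' deposited table. Over the same comparison the libraries of WWTR1, TEAD1 and LATS2 lay wholly above the controls, as did those of ANKRD1, where the groups of 12.6% of all genes did not overlap. No count of calls is given for si1 against siSCR, since the choice of genes used it. For si2 against si1, 2 of 10 were called, WWTR1 higher and CTGF lower, and 3 of 10 were apart, ANKRD1 and CTGF below and WWTR1 above, where 6.74% of all genes were called and 25% were apart. The median log2 difference over the 10 genes was 0.35 for si2 against siSCR and 0.37 for si1 against siSCR, where the median of all genes tested was -0.01 and -0.03. For si2 against siSCR the 10 include CTGF, which was not tested there, and the median of the 9 tested was 0.43. These medians include ANKRD1, whose rise was the reason for the choice, and do not test a shared shift. For si2 against si1 the median was -0.12 for the 10 genes and 0.03 for all genes. Of all genes tested, 49.1% were above 0 for si2 against siSCR, 47.9% for si1 against siSCR and 52.7% for si2 against si1.

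Some libraries were at the edge of their group for many of the genes. In siSCR library 1, which had the highest mitochondrial share, CYR61, AMOTL2, AXL, AJUBA and WWTR1 were at their lowest among the controls and LATS2, YAP1 and TEAD1 at their highest. In si1 library 1, with the highest share of its group at 11.1%, 6 of the 10 genes were at their lowest in the group: ANKRD1, CYR61, AMOTL2, AXL, LATS2 and WWTR1. In si1 library 2, which had the fewest genes detected, ANKRD1, CTGF, AMOTL2, AXL, LATS2 and TEAD1 were at their highest in the group. AJUBA and YAP1 were at their lowest there. Any gene is lowest in 1 of the 3 si1 libraries and highest in another, so such places test nothing. The part of the mitochondrial share in these values was not tested beyond a fit with the share as a covariate. In that fit WWTR1 had a limma adjusted p of 0.0162 for si2 against siSCR. For si2 against si1 the limma adjusted p of WWTR1 was 0.281, and its call was lost. The shares of si2 (4.59 to 5.12%) and si1 (6.57 to 11.1%) did not overlap, so the covariate and the siRNA cannot be told apart there. With the covariate CYR61 for si1 against siSCR had a log2 difference of 0.87, against 0.44 without it.

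Levels can be set between genes only per length, here as normalized count per kilobase of exon. Over the 11 libraries AXL was highest at 302 ± 54.2 (SD), then CYR61 at 176 ± 59.1 and WWTR1 at 151 ± 42.8. AXL was above CYR61 in 11 of 11 libraries and CYR61 above WWTR1 in 8. AMOTL2 at 30.9 ± 11.8, ANKRD1 at 30.7 ± 19.8 and TEAD1 at 29.8 ± 5.79 followed, and do not differ beyond their spread. YAP1 at 18.8 ± 5.02 and LATS2 at 17.6 ± 3.38 came next and overlapped too. AJUBA had 9.71 ± 2.90 and CTGF 3.40 ± 1.82. WWTR1 mRNA was thus several times that of YAP1 per length. ANKRD1's place moved with the group, at 35.1 ± 4.80 per kilobase in si2 (n = 4) and 54.1 ± 9.73 in si1 (n = 3), against 8.88 ± 3.47 in siSCR (n = 4).

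**Figure D3:**
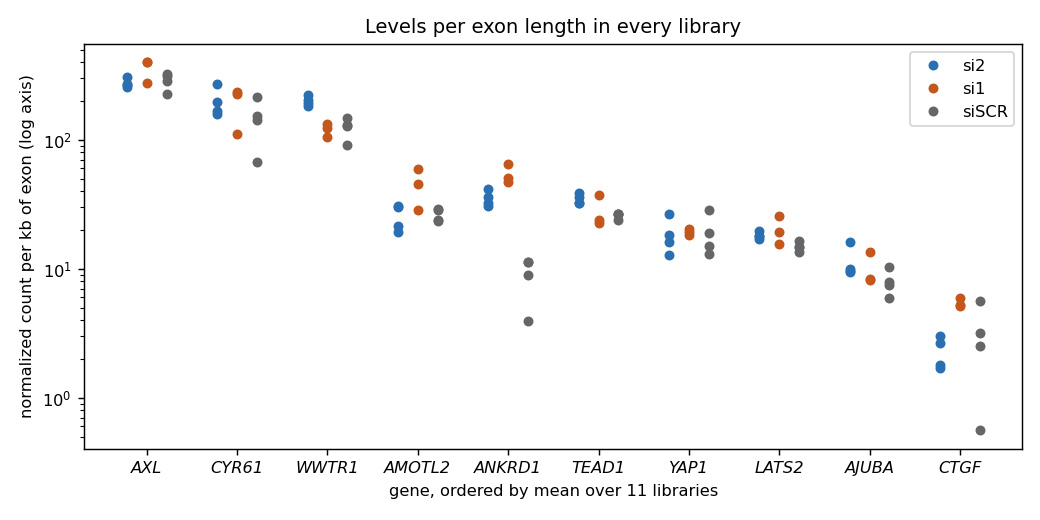
Normalized count per kilobase of exon (vertical, log axis) of the 10 genes, ordered by their mean over 11 libraries, a point for each si2, si1 and siSCR library. AXL, CYR61 and WWTR1 lead and CTGF is lowest, and ANKRD1 is the gene whose siSCR points part widely from the others.

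Genes whose log2 level ran most like ANKRD1's over the 11 libraries were sought among the 8632 genes with at least 10 normalized counts in every library. They were FAM110B (Pearson r 0.98, Spearman rho 0.88), BLVRB (0.96 and 0.87), SPATS2L (0.95 and 0.85), SQLE (0.94 and 0.90) and MSMO1 (0.94 and 0.88). SQLE, an enzyme of cholesterol synthesis, averaged 516 ± 10.1 normalized counts in si2 and 686 ± 84.5 in si1, against 205 ± 94.8 in siSCR. MSMO1, another enzyme of that route, averaged 249 ± 25.1 in si2 and 305 ± 47.8 in si1, against 87.9 ± 29.5 in siSCR. All 5 had their group means in ANKRD1's order, si1 above si2 above siSCR, which follows from picking them for likeness to ANKRD1.

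Between pairs of the 10 genes the values were lower, but the genes above were the best of 8632 searched. The 2 sets of values therefore cannot be set against each other. Over the same 11 libraries CYR61 and AJUBA had the highest Pearson r, at 0.81 (Spearman rho 0.79), and LATS2 ran closest to ANKRD1 at 0.69 (rho 0.66). The paired targets CYR61 and CTGF had r = -0.15 (rho -0.14), and the low reads of CTGF limit that value. YAP1 and WWTR1 had r = -0.35 (rho -0.41). These describe libraries that share groups and depth, and carry no p.

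Of 28 Hippo kinases and upstream regulators listed, 26 were tested. For si2 against siSCR WWC1 rose and STK3 and MAP4K4 fell, with a median log2 difference of 0.00 and 13 of 26 above 0. For si1 against siSCR WWC1 rose and none fell, with a median of 0.07 and 16 of 26 above 0. For si2 against si1 STK3, FRMD6 and TP53BP2 were called lower and none higher, with a median of -0.04.

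STK3, the MST2 kinase that activates LATS1 and LATS2, had 64.6, 57.8, 57.8 and 82.9 normalized counts in si2 and 158, 168 and 177 in si1, against 165, 139, 161 and 169 in siSCR. The 4 si2 libraries stood far below the other 7, and si1 overlapped siSCR. The log2 difference of si2 was -1.27 from siSCR (SE 0.17, limma adjusted p = 0.00639) and -1.35 from si1 (SE 0.19, limma adjusted p = 0.0101). No single library left out ended either call.

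WWC1, the KIBRA scaffold that acts upstream of LATS kinases and is a known YAP1 target too, was the one gene of this list called higher against siSCR with both siRNAs. It had 975, 994, 862 and 886 normalized counts in si2 and 1270, 928 and 1111 in si1, against 579, 471, 481 and 496 in siSCR. The si2 and si1 libraries were all above the controls. The log2 difference was 0.87 in si2 (SE 0.15, limma adjusted p = 0.0152) and 1.11 in si1 (SE 0.19, limma adjusted p = 0.0376). Left out in turn, 5 of 8 libraries ended the si2 call (adjusted p up to 0.0605) and 6 of 7, all but siSCR library 1, the si1 call (up to 0.137).

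MAP4K4, a kinase that can stand in for STK3 and STK4, averaged 627 ± 73.1 in si2 (n = 4), against 1057 ± 134 in siSCR (n = 4), a log2 difference of -0.75 (SE 0.16, limma adjusted p = 0.0369). The call held only without siSCR library 1 among the 8 libraries left out in turn, with adjusted p up to 0.106. FRMD6, a FERM-domain regulator of the cascade, averaged 53.7 ± 11.0 in si2 (n = 4) and 137 ± 22.6 in si1 (n = 3), with siSCR at 51.1 ± 18.4 (n = 4). Its log2 difference was -1.34 for si2 against si1 (SE 0.22, limma adjusted p = 0.0169), and 1.46 for si1 against siSCR, which missed the threshold (SE 0.31, limma adjusted p = 0.0592). The si2 to si1 call was lost without si2 library 1 or 4, with adjusted p up to 0.0563. TP53BP2, which binds YAP1 and LATS1, had a log2 difference of -0.87 for si2 against si1 (SE 0.18, limma adjusted p = 0.0303), lost without any of 5 of the 7 libraries (si1 library 3 and each si2 library). It averaged 207 ± 15.7 in si2 (n = 4) and 380 ± 57.1 in si1 (n = 3), with siSCR at 246 ± 29.1 (n = 4). Its si1 libraries were all above the controls, and si2 overlapped them.

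Of 13 TEAD partners and cofactors, 9 were tested. For si2 against siSCR 1 fell, VGLL4, and none rose, with a median log2 difference of -0.22 and 1 of 9 above 0. For si1 against siSCR none was called, with a median of -0.46 and 2 of 9 above 0. SMARCA4, a chromatin-remodelling ATPase, had a log2 difference of -0.46 there (SE 0.17, limma adjusted p = 0.159). None was called for si2 against si1, with a median of 0.28.

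VGLL4, which competes with YAP1 for TEAD factors and dampens their targets, had 80.5, 96.3, 69.3 and 90.7 normalized counts in si2 and 203, 129 and 144 in si1, against 263, 210.5, 160 and 195 in siSCR. Every si2 library was below every other library, and si1 overlapped siSCR. VGLL4 in si2 had a log2 difference from siSCR of -1.27 (SE 0.19, limma adjusted p = 0.0102), and no single library left out ended the call. Against si1 it was -0.89 (SE 0.22, limma adjusted p = 0.0501). The genes ATG7 and AC022001.2, on the other strand, overlap 23.7% of VGLL4's exon bases, and how such reads were counted is not given in the sources used here.

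A further 16 genes of published YAP and TEAD target signatures were listed, of which 13 were tested against siSCR. For si2 NT5E and CCDC80 fell and none rose, with a median of -0.01 and 6 of 13 above 0. For si1 none was called, with a median of 0.26 and 9 of 13 above 0. MYOF, a membrane-repair ferlin, and PTPN14, a phosphatase that binds YAP1, are named for their high level and had 0.07 and -0.01 there. Furthest from 0 for si1 were RBMS3 at 1.82, NT5E at -0.92 and FJX1 at 0.87. All 3 missed the threshold (limma adjusted p = 0.0628, 0.0609 and 0.0567). For si2 against siSCR RBMS3 had 1.09 and NUAK2 0.93, which also missed it (limma adjusted p = 0.108 and 0.0571). FJX1 was called lower for si2 against si1, out of 12 tested.

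NT5E, the ectonucleotidase CD73, averaged 154 ± 16.4 in si2 (n = 4) and 133 ± 22.3 in si1 (n = 3), against 253 ± 31.5 in siSCR (n = 4). The log2 difference of si2 from siSCR was -0.71 (SE 0.16, limma adjusted p = 0.0434). CCDC80, a secreted matrix protein, averaged 5.57 ± 1.12 in si2, against 15.9 ± 5.46 in siSCR, a log2 difference of -1.32 (SE 0.25, limma adjusted p = 0.0237). CCDC80 entered that test only through siSCR, its high group. Both calls held only without siSCR library 1 when libraries were left out in turn. FJX1, a secreted relative of the fly four-jointed kinase, averaged 157 ± 44.3 in si2 (n = 4) and 358 ± 35.9 in si1 (n = 3), a log2 difference of -1.22 (SE 0.25, limma adjusted p = 0.0287), lost without si1 library 1 or 3 or si2 library 2 or 4. Its siSCR mean was 196 ± 19.1 (n = 4), with every si1 library above the controls and si2 overlapping them.

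None of the 17 paralogs and ligands of the 10 genes was called in any comparison, of 11 tested for si2 against siSCR, 12 for si1 against siSCR and 12 for si2 against si1. TEAD2, a paralog of TEAD1, averaged 112 ± 26.4 in si2 and 71.7 ± 14.2 in si1, against 167 ± 58.6 in siSCR. Its log2 difference from siSCR was -0.50 in si2 (limma adjusted p = 0.388) and -1.14 in si1 (limma adjusted p = 0.112). TEAD4 had -0.22 in si2 and -0.67 in si1, and AMOT, the founding angiomotin, -0.34 in si2 and 0.26 in si1. CCN3, another CCN protein, averaged 89.9 ± 11.4 in si2 and 114 ± 2.12 in si1, against 50.8 ± 22.2 in siSCR. Its log2 difference from siSCR was 0.91 in si2 (limma adjusted p = 0.127) and 1.26 in si1 (limma adjusted p = 0.0911). For si2 against si1 CCN3 had -0.35.

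Serum response factor and its MRTF partners share several targets with YAP1, CYR61 and ANKRD1 among them, and 19 of 20 listed genes of that route were tested. For si2 against siSCR VCL and EGR1 were called lower and none higher, with a median log2 difference of 0.20 and 10 of 19 above 0. The groups of 10 of 19 did not overlap there, against 12.6% of all genes. ACTA2 (0.81), MYL9 (0.61), TAGLN (0.54), TPM1 (0.36) and MYH9 (0.31) lay wholly above siSCR without a call. MRTFA (-0.53), TPM2 (-0.53) and FHL2 (-0.39) lay wholly below it without a call. VCL and EGR1 also lay wholly below it. For si1 against siSCR CNN2 fell and none rose, with a median of 0.10 and 10 of 19 above 0. For si2 against si1 CNN2 and ACTB were called higher and VCL and FHL2 lower, with a median of 0.06.

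VCL, vinculin of focal adhesions, had 279, 307, 289 and 238 normalized counts in si2 and 553, 1102 and 747 in si1, against 683, 636, 627 and 540 in siSCR. Every si2 library was below the other 7. The log2 difference of si2 was -1.16 from siSCR (SE 0.15, limma adjusted p = 0.00639), a call no single library ended, and -1.47 from si1 (SE 0.25, limma adjusted p = 0.0181), lost without si2 library 1, 2 or 4. Exons of AP3M1 on the other strand overlap 11.1% of VCL's.

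CNN2, the actin-binding calponin 2, had 2389, 1999, 1626 and 2077 normalized counts in si2 and 606, 312 and 481 in si1, against 1435, 1799, 1872 and 1770 in siSCR. The 3 si1 libraries were far below the other 8. The log2 difference was 2.15 for si2 against si1 (SE 0.26, limma adjusted p = 0.00726), kept whichever library was left out, and -1.92 for si1 against siSCR (SE 0.25, limma adjusted p = 0.0318), lost without any library but siSCR library 1. ACTB, cytoplasmic beta-actin, had 1.30 for si2 against si1 (SE 0.20, limma adjusted p = 0.0131), a call lost without si2 library 4. ACTB averaged 7046 ± 1077 in si2 and 2854 ± 370 in si1, with siSCR at 5802 ± 1287. Its si1 libraries were all below the controls, and si2 overlapped them. FHL2, a LIM-domain cofactor, had -1.07 for si2 against si1 (SE 0.17, limma adjusted p = 0.0142), lost without si2 library 2 or 4. FHL2 averaged 341 ± 24.7 in si2 and 716 ± 58.5 in si1, with siSCR at 452 ± 78.8. Its si1 libraries were all above the controls and its si2 libraries all below. Reads of ACTB and CNN2 can be split with near-identical gene copies, so their counts are less certain. EGR1, an immediate early factor, averaged 12.6 ± 4.19 in si2, against 60.6 ± 25.9 in siSCR, a log2 difference of -2.10 (SE 0.41, limma adjusted p = 0.0263) that held only without siSCR library 1 among libraries left out. EGR1 had 15.0, 14.4, 6.30 and 14.5 in si2, so it too met the filter only through siSCR, its high group.

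**Figure D4:**
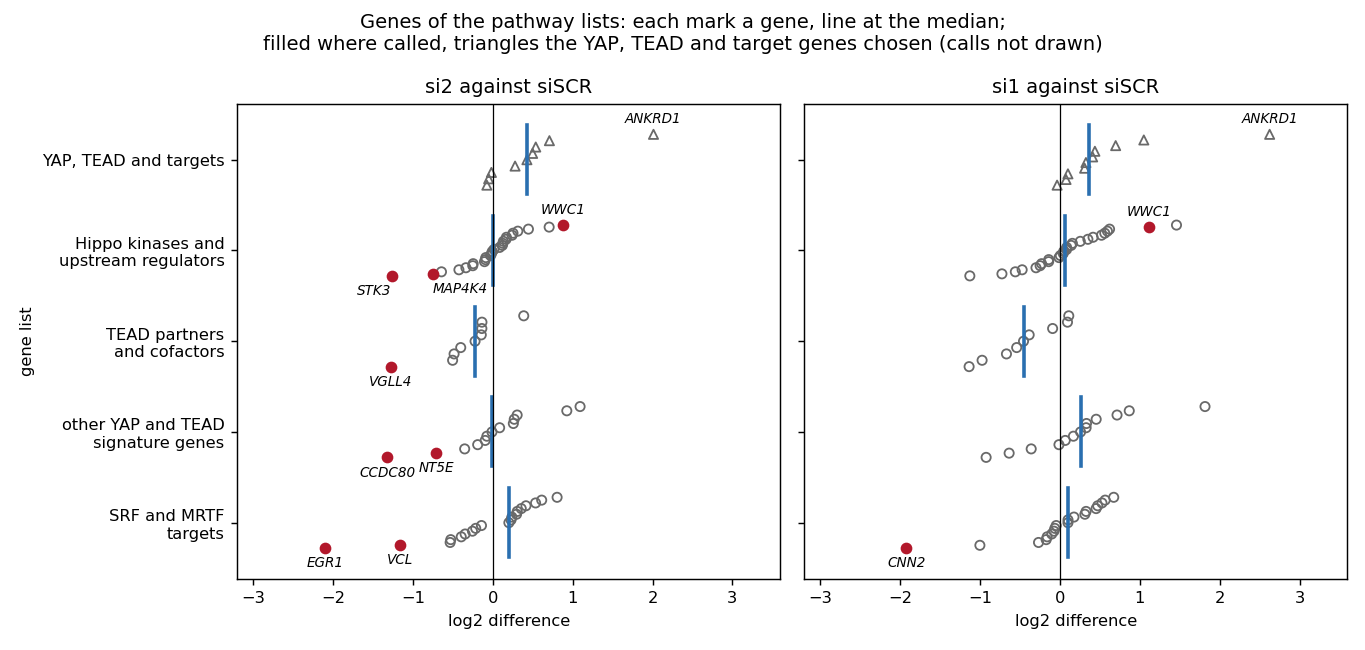
Log2 difference (horizontal) of each tested gene of the 10 (triangles, calls not drawn) and of 4 lists (circles, filled where called), for si2 against siSCR and si1 against siSCR, with the median of each list as a line. ANKRD1 lies at 2.01 and 2.63, while the other signature genes have medians of -0.01 and 0.26.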

How the data were processed

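Gene expression was measured by RNA-seq in 11 libraries of 769-P cells. Per the submitters' processing notes, cutadapt, FastQC, STAR, HTSeq and DESeq2 were used with GRCh38. Per the labels' protocols, reads were counted with HTSeq and normalized by relative log expression in DESeq2. The authors deposited log2 values of these normalized counts plus 1, and the control columns were identical in both tables. They also deposited log2 fold changes, a mean normalized count (a signal per gene) and p-values of their own, which are quoted by name where used.

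Undoing the log gave whole reads for 100% of values (tolerance 0.01 read). Each comparison was fitted with limma 3.58.1 in R 4.3.3 on the log2 values of its own libraries, on genes that reached a normalized count of 10 in at least the number of libraries in the smaller group, and Benjamini-Hochberg adjustment over all genes kept (threshold 0.05). On simulated data with 2-fold changes the fit recovered 65% of changed genes for si2 against siSCR (10323 genes), 34% for si1 against siSCR (10462 genes) and 38% for si2 against si1 (10417 genes), and 100% of changes of 2 on the log2 scale in each. The simulation gave every gene the same spread setting, changed only genes of higher level and held no outlying library. These rates therefore do not describe low genes such as CTGF, nor the real libraries.

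The 10 genes, the lists and the rules were chosen with earlier results of these data known. Named from each list were up to 4 called genes per comparison, or with none called the 2 with the highest level. A gene that this rule names is not reported here. Exon lengths and positions came from GENCODE 29, and promoter windows from RefSeq. Tables were written with Python 3.11.15 and pandas 2.3.3. Alternatives were upper-quartile rescaling, pseudocounts of 0.5 and 5, a minimum count of 50 or none, limma-trend, voom on the recovered reads, all libraries in 1 fit, a replicate block, the mitochondrial share as a covariate, and each library left out in turn. The replicate block kept only replicate numbers found in both groups. It thus also left out siSCR library 4 for si1 against siSCR and si2 library 4 for si2 against si1. The alternatives for called list genes were added after the data were seen.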

Additional observations from a re-analysis of the deposited data

Results flagged for a closer look

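For AJUBA, si2 library 3 was far from the other libraries of its group, at a log2 level of 6.61, with a gap to the next library of 0.911 of the group's range, past Dixon's 95% critical value. For TEAD1, siSCR library 2 was below the other controls at 7.95, with a gap of 0.943 of the range. Over the 20 groups of 4 libraries looked at, chance sets off about 1 in 20.

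The 2 siRNAs differed from each other in WWTR1, by a log2 difference of 0.74 for si2 against si1 (limma adjusted p = 0.0416), higher in all 4 si2 libraries than in all 3 si1 libraries. The call was lost whichever library was left out. CTGF had a log2 difference of -1.13 for si2 against si1, on 4 to 12 reads per si2 library and 8 to 14 per si1 library. It entered the test only through si1, its high group, and its call was lost in 5 of 7 fits that left a library out, so nothing rests on it.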

How the results depend on the processing

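For si2 against siSCR 320 genes were called, and 108 with no filter, 482 with limma-trend, 175 with the replicate block, 1343 with the mitochondrial covariate, and 88 to 1496 with a library left out (1496 without siSCR library 1). For si1 against siSCR 181 were called, and 118 with upper-quartile rescaling, 5 with no filter, 567 with a minimum of 50, 712 with limma-trend, 414 with a pseudocount of 5, 523 with voom, 1141 with all 11 libraries in 1 fit, 0 with the replicate block (limma) and 0 to 1399 with a library left out (1399 without siSCR library 1). The block also left out siSCR library 4 there, and 0 were called without that library alone. Without a block, 2516 of the genes tested for si1 against siSCR had an unadjusted limma p under 0.05. For si2 against si1 704 were called, 388 higher and 316 lower, and 230 with no filter, 1064 with limma-trend, 1200 with voom (791 higher, 409 lower), 6 with the replicate block, 167 with the mitochondrial covariate and 120 to 803 with a library left out. Upper-quartile rescaling gave 431 higher and 158 lower there and set the median of all genes at 0.16, against 0.03.

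Small differences changed sign. For si2 against siSCR, AMOTL2 ran between -0.18 and 0.050 and AXL between -0.16 and 0.010 with a library left out. YAP1 was 0.032 with upper-quartile rescaling, 0.12 with the mitochondrial covariate and -0.21 to 0.21 with a library left out. For si2 against si1 with a library left out, CYR61 ran between -0.25 and 0.29, LATS2 between -0.30 and 0.058, AJUBA between -0.010 and 0.41, YAP1 between -0.31 and 0.036, and AKR1A1 between -0.43 and 0.45. With the mitochondrial covariate CYR61 was -0.86 and AJUBA -0.020. YAP1 was 0.0081 with upper-quartile rescaling, and AKR1A1 -0.054 with voom. The cause was not tested. For si1 against siSCR, given without a test, YAP1 (0.10) was -0.00038 with voom, -0.056 with the replicate block and without siSCR library 4, and -0.12 with the mitochondrial covariate. There WWTR1 (-0.03) was 0.13 with that covariate, 0.057 without si1 library 1 and 0.054 without siSCR library 3, and TEAD1 (0.08) was -0.00016 with upper-quartile rescaling and -0.14 without si1 library 2. Over the tested single genes 504 values kept direction and side of the threshold, 128 lost a call, 7 gained one and 20 changed sign. Of 204 values without a test, 9 changed sign.

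WWTR1 for si2 against si1 had a limma adjusted p of 0.110 with no filter, 0.183 with the replicate block and 0.281 with the mitochondrial covariate. Its range was 0.00487 to 0.281 over the 10 alternatives other than each library left out in turn. AKR1A1, STK3, VGLL4 and VCL for si2 against siSCR kept their calls under all 10 of those alternatives. Other calls named were lost under some. With no filter, besides WWTR1, these were AKR1A1, CNN2 and WWC1 for si1 against siSCR, CCDC80, EGR1, MAP4K4, NT5E and WWC1 for si2 against siSCR, and CTGF, FJX1, TP53BP2 and VCL for si2 against si1. CCDC80 was also lost with limma-trend (0.069) and voom (0.0888), EGR1 with all 11 libraries in 1 fit (0.145), and CTGF under all of these 3. Upper-quartile rescaling ended AKR1A1 and WWC1 for si1 against siSCR, MAP4K4 for si2 against siSCR, and FJX1 and TP53BP2 for si2 against si1. The mitochondrial covariate ended, besides WWTR1, STK3, FRMD6, ACTB, FHL2, FJX1, TP53BP2 and CTGF for si2 against si1. In that comparison the mitochondrial shares of the groups did not overlap, so the covariate cannot be told apart from the siRNA. The replicate block ended every named call for si2 against si1 and for si1 against siSCR, and EGR1, MAP4K4 and NT5E for si2 against siSCR. It also left out si2 library 4 for si2 against si1 and siSCR library 4 for si1 against siSCR, so blocking alone was not tried there. The replicate numbers share only a number: same-numbered libraries of si1 and siSCR deviated together with r = 0.40, 0.093 and 0.147, and of si2 and siSCR with 0.10, -0.03, 0.18 and 0.088, and not every library correlated best with its own number. CTGF at 1 to 14 reads is limited by depth.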
